A study of Mus musculus with 8 samples.

Results

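The 10 genes described here encode checkpoint ligands, surface proteins that engage inhibitory receptors on T cells or on myeloid cells. They were taken by name, as ligands of PD-1, CTLA-4, TIGIT and related receptors, from 55487 Ensembl genes with a value in each of 8 RNA sequencing libraries. All 10 were measured. The libraries come from C57BL/6 mice injected under the skin with B16F10, a mouse melanoma line that makes pigment. In 4 mice the treatment was tacrolimus (FK506) at 3 mg/kg, and in 4 mice it was vehicle, each given intraperitoneally every 5 days from a tumor volume of about 50 mm3, which was reached 7 to 9 days after the tumor cells were injected. Tumors were taken 6 days after treatment began and digested, and RNA of cells that flow cytometry sorted as CD8+ tumor-infiltrating lymphocytes (TILs) was sequenced, with 1 library for each of 4 mice in a group. All mice carried the same cell line, and no tumor-free or unsorted sample is used here.

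A T cell is restrained when an inhibitory receptor on its surface binds its ligand on a tumor cell or an antigen-presenting cell. PD-L1 (Cd274) and PD-L2 (Pdcd1lg2) bind PD-1, and interferon gamma is a well-known inducer of PD-L1, with IRF1 as a transcription factor in between. CD80 and CD86 deliver costimulation through CD28 and are competed for by CTLA-4, while PVR and Nectin-2 are shared between the activating receptor CD226 and the inhibitory receptor TIGIT. Tacrolimus inhibits calcineurin, the phosphatase that activates NFAT factors in stimulated T cells.

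The label describes CD8+ lymphocytes, and the marker genes show RNA of other cells beside them. The summed level of 12 melanoma markers lay between 22749 and 27904 FPKM in tacrolimus libraries and between 19198 and 34829 FPKM in vehicle libraries. That of 10 T cell markers lay between 45.4 and 332 FPKM in tacrolimus libraries and between 325 and 1365 FPKM in vehicle libraries. The sum of 14 macrophage markers lay between 341 and 697 FPKM in tacrolimus libraries and between 600 and 1893 FPKM in vehicle libraries. Lyz2 and Mertk had the highest group means in it. Mertk, at 114 to 172 FPKM with tacrolimus and 73.8 to 193 FPKM with vehicle, was the 1 of 13 tested with a higher mean (log2 difference 0.35). The sum of 10 dendritic cell markers lay between 39.6 and 55.0 FPKM in tacrolimus libraries and between 61.1 and 140 FPKM in vehicle libraries. Ccr7 and Fscn1 made up much of it, and in vehicle replicate 1 they were at 77.7 and 12.0 FPKM. Of the 6 tested, 1 was lower at an unadjusted limma p under 0.05, Ccr7 (15.8% of all genes). Flt3 and Zbtb46 had log2 differences of -0.16 and -0.02. The sum of 5 neutrophil markers lay between 13.2 and 45.8 FPKM in tacrolimus libraries and between 31.1 and 338 FPKM in vehicle libraries. The 5 B cell markers summed to between 0.82 and 3.31 FPKM in tacrolimus libraries and to between 2.22 and 5.84 FPKM in vehicle libraries, with Pax5 at 0.19 FPKM or less in each. The 8 fibroblast and endothelial markers summed to between 34.8 and 56.0 FPKM in tacrolimus libraries and to between 41.4 and 67.4 FPKM in vehicle libraries. Single genes show the same scale: Pmel, a melanosome protein gene, was at 4956 ± 736 FPKM with tacrolimus, against 6477 ± 1629 with vehicle, Cd8a at 18.6 ± 12.2 FPKM with tacrolimus, against 71.7 ± 54.5 with vehicle, or 44.6 over vehicle replicates 2 to 4, Cd3e at 22.5 ± 16.7 FPKM with tacrolimus, against 80.8 ± 45.6 with vehicle, or 59.1 over vehicle replicates 2 to 4, Csf1r at 2.50 ± 0.41 FPKM with tacrolimus, against 8.70 ± 4.99 with vehicle, or 7.31 over vehicle replicates 2 to 4, and Lyz2 at 167 ± 52.7 FPKM with tacrolimus, against 444 ± 315 with vehicle (SD, n = 4 each), or 300.04 over vehicle replicates 2 to 4. No marker of the melanoma, T cell or macrophage list was at 0 in any library. A ligand value here is therefore that of the whole RNA of a library, and fewer cells of a type and less RNA per cell cannot be told apart. Vehicle replicate 1 stood apart: it had the highest T cell and macrophage sums and the lowest melanoma sum, and it took 63.9% of the squared scores on principal component 1. Group means that it moved strongly are also given over vehicle replicates 2 to 4. Steps between low values put the depth at about 15480000 to 19440000 fragments in each library.

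The ligand genes lie on chromosomes 7, 9, 10, 16 and 19 of GRCm38, and those of both PD-1 ligands lie close together. Cd274 (ENSMUSG00000016496) spans 29367455 to 29388095 on the plus strand of chromosome 19, and Pdcd1lg2 (ENSMUSG00000016498) spans 29410919 to 29471161 on the same strand, with 22823 bases between them. Cd47 (ENSMUSG00000055447) spans 49800533 to 49915010 on the plus strand of chromosome 16. The promoters of these 3 genes are shown because the first pair shares a receptor and a locus but lay far apart in level, and because Cd47 was the most abundant ligand gene. Each sequence runs 5′ to 3′ on the plus strand from 250 bases before the RefSeq start site to 50 bases from it, in build GRCm38.p6, at chr19:29367188-29367487 for Cd274, chr19:29410669-29410968 for Pdcd1lg2 and chr16:49855404-49855703 for Cd47. The RefSeq start of Cd47 lies inside the span of the gene given above. Capitals mark GGAAA, the core of an NFAT site, on either strand.
Cd274: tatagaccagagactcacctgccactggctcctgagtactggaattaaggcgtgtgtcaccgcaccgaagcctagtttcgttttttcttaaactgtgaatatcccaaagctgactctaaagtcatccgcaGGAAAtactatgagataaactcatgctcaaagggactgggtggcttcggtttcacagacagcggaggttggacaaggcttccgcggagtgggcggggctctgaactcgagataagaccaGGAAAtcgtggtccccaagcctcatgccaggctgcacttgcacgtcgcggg
Pdcd1lg2: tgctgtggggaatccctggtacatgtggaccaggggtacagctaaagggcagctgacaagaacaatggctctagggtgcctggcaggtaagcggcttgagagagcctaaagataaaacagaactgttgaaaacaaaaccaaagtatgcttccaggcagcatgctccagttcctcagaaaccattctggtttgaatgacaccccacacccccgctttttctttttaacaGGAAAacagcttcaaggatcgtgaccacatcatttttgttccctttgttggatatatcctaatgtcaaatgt
Cd47: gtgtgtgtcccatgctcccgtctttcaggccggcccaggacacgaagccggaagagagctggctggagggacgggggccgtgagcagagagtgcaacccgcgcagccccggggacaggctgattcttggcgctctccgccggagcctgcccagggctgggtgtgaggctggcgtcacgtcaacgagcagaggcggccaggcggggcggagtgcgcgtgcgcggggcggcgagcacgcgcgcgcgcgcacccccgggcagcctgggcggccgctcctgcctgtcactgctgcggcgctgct
RefSeq promoters were given for 8 of the 10 genes, and Cd86 and Pvr had no entry in the table. GGAAA was found 2 times in the Cd274 window, starting at -120 and -1 from the start site, and 1 time each in the Pdcd1lg2 window, at -22, and the Cd276 window, at -142. Of 27025 mouse genes with such a window, 61.3% held GGAAA on either strand. The interferon elements searched on both strands were TTCNNNGAA, the gamma-activated site, which 8.47% of all windows held, and the core of the interferon-stimulated response element, GAAA, then 2 bases of any kind, then GAAA, which 3.49% held. Neither was found in any of the 8 windows, which says only that these letters are not in these 300 bases. The 3 windows differed in base composition. The Cd47 window was 74.0% G and C with 35 CpG, the Cd274 window 52.7% with 15 CpG and the Pdcd1lg2 window 46.0% with 3 CpG, where the median window of all genes was 52.7% with 7 CpG.

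Per length, the ligand genes covered a wide range of levels, and Cd47 was the highest of them in each of the 8 libraries. On the FPKM scale, which is per kilobase, the order of the mean over 8 libraries was Cd47 at 74.4, Pvr at 16.2, Cd200 at 15.5, Cd274 at 13.7, Nectin2 at 11.8, Cd276 at 7.45, Vsir at 6.70, Cd86 at 5.28, Cd80 at 1.16 and Pdcd1lg2 at 0.809 FPKM. Cd47 exceeded Pvr, Nectin2 exceeded Cd276 and Cd86 exceeded Cd80 in 8 of 8 libraries. The other neighbours in this order changed places between libraries: Pvr exceeded Cd200 in 5, Cd200 exceeded Cd274 in 4, Cd274 exceeded Nectin2 in 5, Cd276 exceeded Vsir in 6, Vsir exceeded Cd86 in 4 and Cd80 exceeded Pdcd1lg2 in 5 of 8. The 10 genes summed to between 106 and 132 FPKM in tacrolimus libraries and to between 151 and 285 FPKM in vehicle libraries. Cd47 made up between 45.3% and 54.1% of that sum in tacrolimus libraries and between 41.2% and 53.7% in vehicle libraries.

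**Figure D1:**
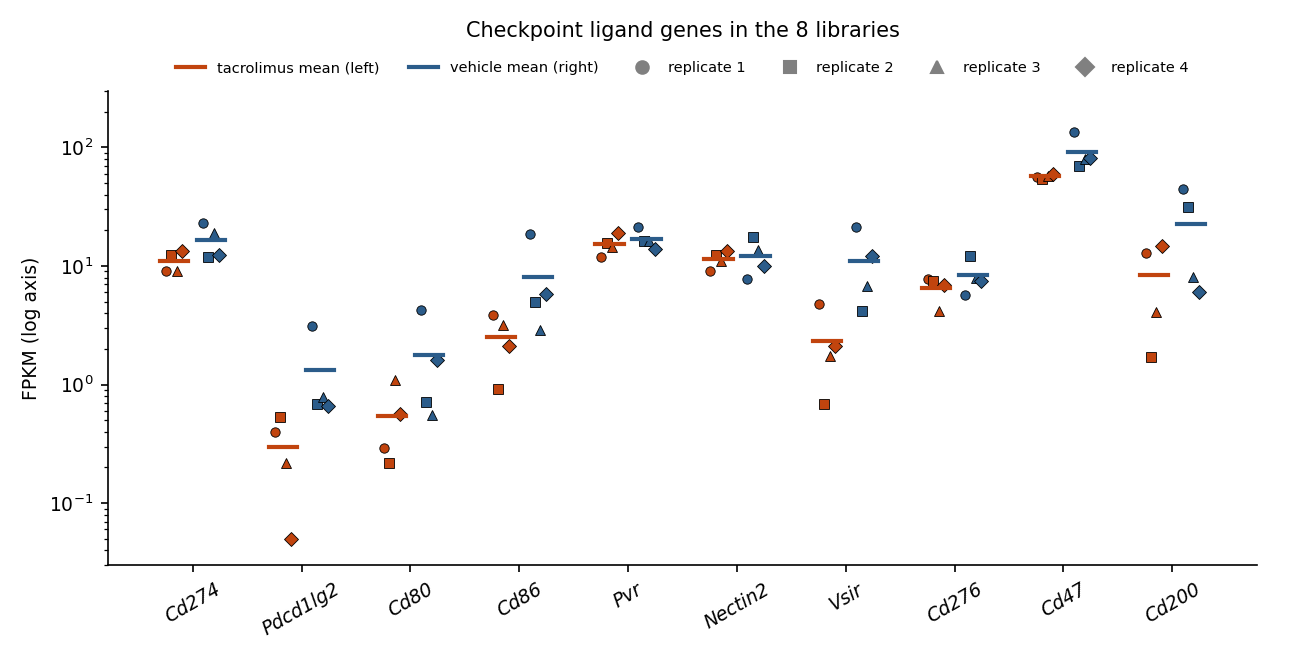
FPKM of the 10 checkpoint ligand genes in each of the 8 libraries, on a log axis, with tacrolimus libraries left and vehicle libraries right of each gene's position. Each point is 1 library and each bar a group mean over 4 libraries. The groups do not overlap for Cd47 and Pdcd1lg2, and vehicle replicate 1 is the highest library for 8 of the 10 genes.

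The comparison asked whether the ligand genes differed between the sorted-cell libraries of tacrolimus and vehicle mice. None of the 13032 genes tested passed an adjusted p of 0.05 in limma (0% called), and so no ligand gene did. Of the 10, 8 reached an FPKM of 1 in at least 4 libraries and were tested, and Cd80 and Pdcd1lg2 did not. All 8 tested genes had a lower mean in the tacrolimus group, as had 75.7% of all genes tested. Their median log2 difference was -0.57, beside -0.19 for all genes tested. At an unadjusted limma p under 0.05, 3 of the 8 were lower, against 15.8% of all genes, and 0 were higher, against 1.6% of all genes. The scaling moved these counts: after median-of-ratios scaling the median of all genes was 0.0001, 5.73% of all genes were lower and 5.46% higher, and 1 of the 8 ligand genes, Vsir, was lower at an unadjusted p under 0.05. Without vehicle replicate 1 the count was 2 of 8, Vsir and Cd47, where 19.3% of all genes were lower.

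Cd47, whose product binds SIRP-alpha on phagocytes and restrains engulfment, separated the groups in the values as deposited. It was at 56.9, 53.8, 57.9 and 60.1 FPKM in tacrolimus replicates 1 to 4, against 135, 70.2, 79.8 and 81.1 FPKM in vehicle replicates 1 to 4. Every tacrolimus library was below every vehicle library, and the tacrolimus libraries lay close together. The mean was 57.1 ± 2.62 FPKM with tacrolimus, against 91.6 ± 29.5 with vehicle (SD, n = 4 each), or 77.0 over vehicle replicates 2 to 4. The log2 difference was -0.62 (SE 0.19, limma adjusted p = 0.196, unadjusted p = 0.00886). The exact two-sided permutation test gave p = 0.0286, the smallest that 4 against 4 libraries allow. Cd47 was the 1 tested ligand gene of 8 whose groups did not overlap, where 10.2% of all genes tested did not overlap and were lower and 0.767% did not overlap and were higher. After median-of-ratios scaling the groups overlapped, at 55.8 to 67.5 with tacrolimus and 57.2 to 137 with vehicle, and the log2 difference was -0.41 (limma adjusted p = 0.513; 0.138 to 0.513 over the alternatives). Sirpa, the gene of its receptor on myeloid cells, was at 36.8 ± 5.88 FPKM with tacrolimus, against 52.9 ± 12.5 with vehicle, or 57.3 over vehicle replicates 2 to 4, with overlap. Among the vehicle libraries Sirpa was lowest in replicate 1, at 39.5 FPKM, where the macrophage marker sum was highest. The cells that gave this RNA were not tested.

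The genes of the PD-1 ligands were far apart in level. Cd274 was at 9.00, 12.5, 9.00 and 13.4 FPKM in tacrolimus replicates 1 to 4, against 22.9, 11.8, 18.8 and 12.5 FPKM in vehicle replicates 1 to 4. Tacrolimus replicates 2 and 4 lay among the lower vehicle libraries, so the groups overlapped. The mean was 10.98 ± 2.31 FPKM with tacrolimus, against 16.5 ± 5.29 with vehicle (SD, n = 4 each), or 14.4 over vehicle replicates 2 to 4. The log2 difference of -0.52 (95% interval -1.05 to 0.01) did not pass (limma adjusted p = 0.292, exact permutation p = 0.171), and it was -0.32 after median-of-ratios scaling.

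Pdcd1lg2 was at 0.40, 0.53, 0.22 and 0.05 FPKM in tacrolimus replicates 1 to 4, against 3.15, 0.68, 0.78 and 0.66 FPKM in vehicle replicates 1 to 4. The groups did not overlap, but the highest tacrolimus library and the lowest vehicle library were close, and vehicle replicate 1 stood above all others. The mean was 0.30 ± 0.21 FPKM with tacrolimus, against 1.32 ± 1.22 with vehicle, or 0.707 ± 0.0643 over vehicle replicates 2 to 4. At the length of its longest annotated transcript these values stand for about 1.16 to 12.5 fragments in tacrolimus libraries and 15.6 to 78.3 in vehicle libraries, so the depth behind each is small. The exact permutation p was 0.0286, and with every expressed gene in the fit the limma adjusted p was 0.483. Per length, the Cd274 level was between 22.5 and 268 times the Pdcd1lg2 level in tacrolimus libraries and between 7.26 and 24.2 times in vehicle libraries, where the ratio of 268 belongs to tacrolimus replicate 4 with about 1.16 Pdcd1lg2 fragments.

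The genes of the CD28 and CTLA-4 ligands, which dendritic cells and macrophages express, were both low. The dendritic cell and macrophage marker sums given above were also highest in vehicle replicate 1, and their part in these values was not tested. Cd86 was at 3.89, 0.92, 3.20 and 2.12 FPKM in tacrolimus replicates 1 to 4, against 18.5, 4.94, 2.91 and 5.77 FPKM in vehicle replicates 1 to 4. Vehicle replicate 3 lay below tacrolimus replicates 1 and 3, so the groups overlapped. The mean was 2.53 ± 1.299 FPKM with tacrolimus, against 8.02 ± 7.07 with vehicle, or 4.54 over vehicle replicates 2 to 4. The log2 difference was -1.16 (SE 0.47, limma adjusted p = 0.254, unadjusted p = 0.0335), and without vehicle replicate 1 it was -0.70 with an unadjusted limma p of 0.0692. Without tacrolimus replicate 2 the unadjusted limma p was 0.0913. Cd80 was at 0.29, 0.22, 1.10 and 0.56 FPKM in tacrolimus replicates 1 to 4, against 4.24, 0.72, 0.55 and 1.60 FPKM in vehicle replicates 1 to 4. Its groups overlapped (exact permutation p = 0.171), and the vehicle mean of 1.78 FPKM was 0.957 without replicate 1.

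Vsir, which encodes VISTA, an inhibitory protein that is both a ligand and a receptor and is found on myeloid and T cells, had the most negative log2 difference of the 8 tested genes in the values as deposited. It was at 4.80, 0.69, 1.74 and 2.12 FPKM in tacrolimus replicates 1 to 4, against 21.2, 4.17, 6.75 and 12.1 FPKM in vehicle replicates 1 to 4. The groups overlapped at 1 point, tacrolimus replicate 1 above vehicle replicate 2. The mean was 2.34 ± 1.75 FPKM with tacrolimus, against 11.1 ± 7.53 with vehicle, or 7.67 over vehicle replicates 2 to 4. The log2 difference was -1.78 (SE 0.48, limma adjusted p = 0.193, unadjusted p = 0.00389, exact permutation p = 0.0571). Selplg, which encodes PSGL-1, a binding partner of VISTA, was at 25.8 ± 14.4 FPKM with tacrolimus, against 96.4 ± 78.2 with vehicle, or 58.1 over vehicle replicates 2 to 4. The T cell and macrophage marker sums were also lowest in tacrolimus replicate 2 and highest in vehicle replicate 1, the same libraries as for Vsir. Cd47, Cd80, Cd86 and Cd200 shared these extremes. The part of T cell or macrophage RNA in the Vsir difference was not tested.

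Cd200, whose product restrains myeloid cells through CD200R, varied within both groups. It was at 12.8, 1.70, 4.12 and 14.9 FPKM in tacrolimus replicates 1 to 4, against 44.6, 31.6, 8.08 and 6.01 FPKM in vehicle replicates 1 to 4. Vehicle replicates 3 and 4 lay within the tacrolimus range. The mean was 8.38 ± 6.45 FPKM with tacrolimus, against 22.6 ± 18.7 with vehicle, or 15.2 over vehicle replicates 2 to 4. The log2 difference of -1.24 (95% interval -2.82 to 0.34) did not pass (limma adjusted p = 0.374). It was -0.78 without vehicle replicate 1 and -0.75 without tacrolimus replicate 2. Cd200r1, the receptor gene, was at 1.74 ± 1.56 FPKM with tacrolimus, against 5.54 ± 3.19 with vehicle, or 4.14 over vehicle replicates 2 to 4.

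The genes of the TIGIT and CD226 ligands overlapped between the groups over most of their range, and the direction of their difference depended on the scaling. Pvr, at chromosome 7 from 19903578 to 19921160, was at 12.0, 15.8, 14.6 and 19.1 FPKM in tacrolimus replicates 1 to 4, against 21.4, 16.4, 16.2 and 13.9 FPKM in vehicle replicates 1 to 4. Nectin2, at chromosome 7 from 19716644 to 19750483, was at 9.04, 12.3, 11.04 and 13.3 FPKM in tacrolimus replicates 1 to 4, against 7.82, 17.5, 13.6 and 10.0 FPKM in vehicle replicates 1 to 4. For Nectin2 the vehicle libraries enclosed the tacrolimus range on both sides. The log2 difference of Pvr was -0.14 (95% interval -0.55 to 0.28, limma adjusted p = 0.709) as deposited and 0.07 after median-of-ratios scaling. That of Nectin2 was -0.05 (95% interval -0.58 to 0.48, limma adjusted p = 0.932) as deposited and 0.16 after median-of-ratios scaling. These intervals allow changes of either sign.

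Cd276, the gene of B7-H3, a B7 family protein with no agreed receptor, was at 7.73, 7.47, 4.14 and 6.87 FPKM in tacrolimus replicates 1 to 4, against 5.66, 12.3, 8.0 and 7.46 FPKM in vehicle replicates 1 to 4. Its groups overlapped over most of their range. The log2 difference was -0.29 (95% interval -0.86 to 0.27, limma adjusted p = 0.546). It was -0.10 after median-of-ratios scaling, -0.44 without vehicle replicate 1, -0.11 without vehicle replicate 2 and -0.12 without tacrolimus replicate 3. Nectin2 and Cd276 were the 2 ligand genes of 10 that were not highest in vehicle replicate 1: both were highest in vehicle replicate 2, and Nectin2 was lowest in vehicle replicate 1.

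**Figure D2:**
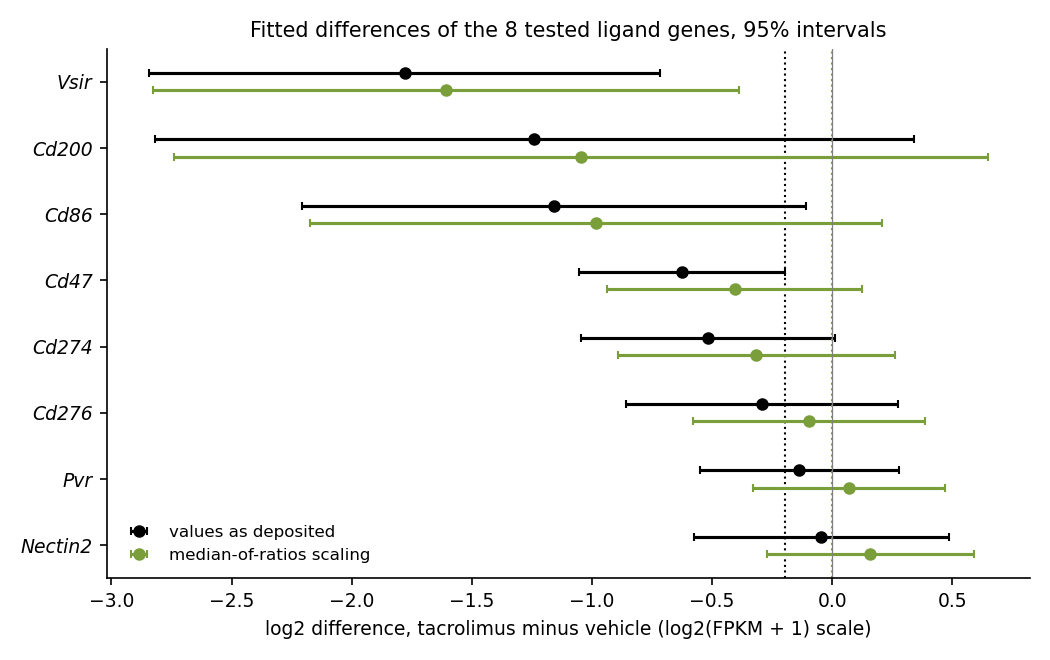
Fitted log2 differences of the 8 tested ligand genes, tacrolimus minus vehicle, of log2(FPKM + 1), with 95% intervals from limma, for the values as deposited (black) and after median-of-ratios scaling (green). Dotted lines give the median of all genes, at -0.19 as deposited and 0.0001 after scaling, and Pvr and Nectin2 change sign between the scalings.

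The genes of the binding partners of these ligands, most of them receptors, were next set beside the ligand genes. Of 13 listed, 12 were tested and all 12 had a lower mean, 10 of them at an unadjusted limma p under 0.05 (15.8% of all genes) and none at an adjusted p under 0.05. Their median log2 difference was -1.44, beside -0.57 for the ligand genes and -0.19 for all genes tested, and whether the lists differ was not tested. The count of 10 of 12 was 6 of 12 without vehicle replicate 1 (19.3% of all genes), 5 of 12 without tacrolimus replicate 2 (12.4% of all genes) and 3 of 13 after median-of-ratios scaling (5.73% of all genes). Several of these receptors are T cell genes, and the summed T cell markers were at 45.4 to 332 FPKM in tacrolimus libraries against 325 to 1365 FPKM in vehicle libraries. The part of T cell RNA in the binding partner values was not tested.

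Pdcd1, the gene of PD-1, was at 18.9, 1.57, 8.05 and 7.16 FPKM in tacrolimus replicates 1 to 4, against 86.2, 24.5, 22.3 and 26.4 FPKM in vehicle replicates 1 to 4. In the values as deposited its groups did not overlap, while those of Cd274 did, and the mean of vehicle replicates 2 to 4 was 24.4 FPKM. Of the 12 tested binding partner genes 2, Pdcd1 and Ctla4, did not overlap and were lower, against 10.2% of all genes tested. After median-of-ratios scaling both overlapped, with tacrolimus replicate 1 above vehicle replicate 2. Ctla4 did not overlap either, at 11.2 ± 7.59 FPKM with tacrolimus, against 65.0 ± 71.8 with vehicle, or 29.1 over vehicle replicates 2 to 4, and vehicle replicate 1 alone had 173 FPKM. Cd28, its costimulatory counterpart, was at 11.8 ± 8.06 FPKM with tacrolimus, against 66.0 ± 82.3 with vehicle, or 25.3 over vehicle replicates 2 to 4, with 188 FPKM in vehicle replicate 1. Tigit was at 10.2 ± 7.84 FPKM with tacrolimus, against 35.4 ± 36.4 with vehicle, or 17.4 over vehicle replicates 2 to 4. Cd226 was at 3.00 ± 1.58 and Cd96, a further receptor of PVR, at 3.65 ± 2.88 FPKM in the tacrolimus group, against 11.3 ± 10.2 for Cd226 and 10.2 ± 6.10 FPKM for Cd96 with vehicle. Over vehicle replicates 2 to 4 the means were 6.33 FPKM for Cd226 and 7.13 FPKM for Cd96.

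**Figure D3:**
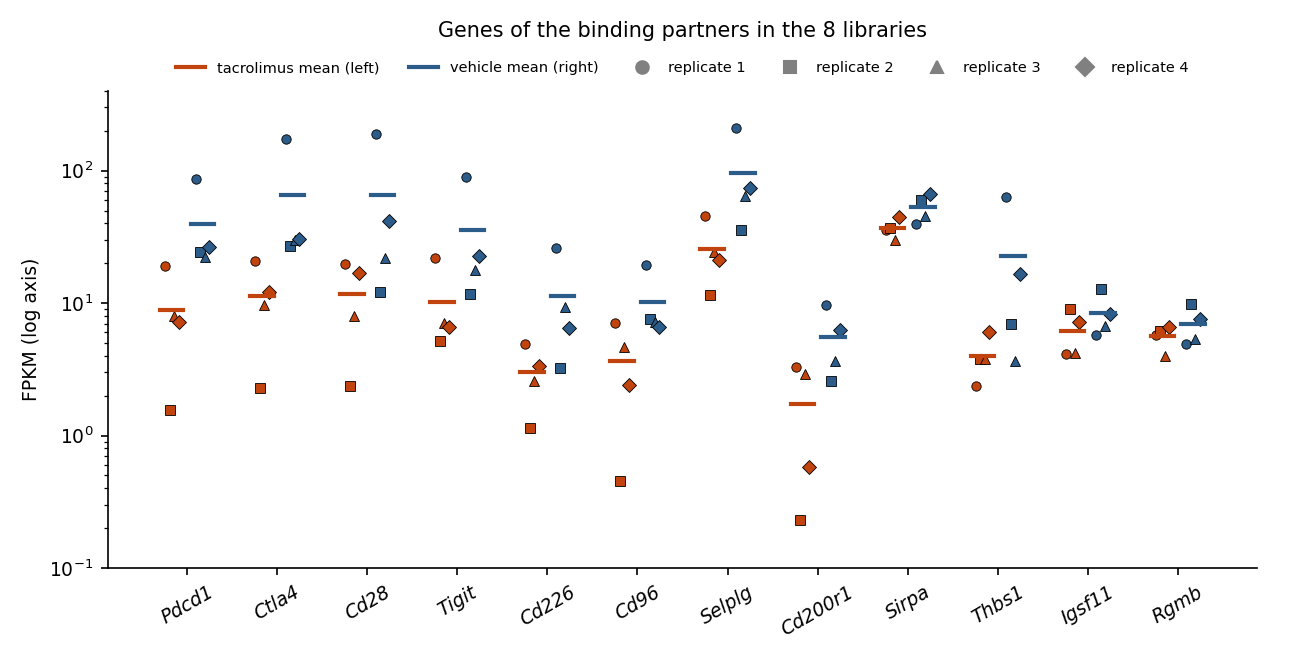
FPKM of the 12 tested binding partner genes in each of the 8 libraries, on a log axis, with tacrolimus libraries left and vehicle libraries right of each gene's position, points for libraries and bars for group means. In the values as deposited Pdcd1 and Ctla4 do not overlap between the groups, and tacrolimus replicate 2 is the lowest library for all but Sirpa, Thbs1, Igsf11 and Rgmb.

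Genes of the interferon gamma response and of PD-L1 regulation, not all of them upstream of Cd274, were measured beside Cd274. Of 14 listed, 12 were tested, 11 had a lower mean in the tacrolimus group, 10 at an unadjusted limma p under 0.05 (15.8% of all genes) and none at an adjusted p under 0.05, with a median log2 difference of -0.78. Without vehicle replicate 1 the count was 9 of 12 (19.3% of all genes), and after median-of-ratios scaling it was 3 of 12 (5.73% of all genes). Irf1, a transcription factor that interferon gamma induces, was at 12.3 ± 2.60 FPKM with tacrolimus, against 34.9 ± 24.3 with vehicle, or 23.1 over vehicle replicates 2 to 4. Cmtm6, whose product keeps PD-L1 at the cell surface, was at 8.14 ± 1.22 FPKM with tacrolimus, against 13.04 ± 4.09 with vehicle, or 11.04 over vehicle replicates 2 to 4. In the values as deposited the groups did not overlap for Irf1 and Cmtm6, and for Cd274 they did. Of the 12 tested genes 6 did not overlap and were lower, against 10.2% of all genes tested. After median-of-ratios scaling the groups of Irf1 and Cmtm6 overlapped. Ifng itself was at 10.4 ± 5.68 FPKM with tacrolimus, against 44.6 ± 38.1 with vehicle, or 26.3 over vehicle replicates 2 to 4.

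Among 18 other checkpoint ligand genes, 8 were tested, 3 were lower at an unadjusted limma p under 0.05 (15.8% of all genes) and none passed adjusted. Their median log2 difference was -0.66, and after median-of-ratios scaling 1 of 8 was lower at an unadjusted p under 0.05 (5.73% of all genes). Lgals9, which encodes galectin-9, a ligand of TIM-3, was at 53.0, 62.6, 62.0 and 61.1 FPKM in tacrolimus replicates 1 to 4, against 89.0, 111, 94.2 and 88.7 FPKM in vehicle replicates 1 to 4 (log2 difference -0.67, SE 0.13, limma adjusted p = 0.179). The groups were clear of each other, and the spread within each was small. In the values as deposited, 2 of the 8 tested genes, Lgals9 and H2-T23, did not overlap and were lower, against 10.2% of all genes tested. H2-T23, which encodes Qa-1, the ligand of NKG2A, was at 30.2 ± 6.88 FPKM with tacrolimus, against 75.3 ± 56.2 with vehicle, or 47.5 over vehicle replicates 2 to 4. Cd48, a ligand of 2B4, was at 18.2 ± 9.73 FPKM with tacrolimus, against 50.9 ± 40.8 with vehicle, or 30.7 over vehicle replicates 2 to 4. Of 9 costimulatory ligand genes 4 were tested and 1, Tnfsf4, was lower at an unadjusted limma p under 0.05 (15.8% of all genes). Tnfsf4, which encodes OX40 ligand, was at 1.06 ± 0.48 FPKM with tacrolimus, against 4.17 ± 2.50 with vehicle, or 2.96 over vehicle replicates 2 to 4. Its log2 difference was -1.24 (SE 0.33, limma adjusted p = 0.193). As deposited, 2 of these 4 genes, Tnfsf4 and Icosl, did not overlap and were lower, against 10.2% of all genes tested. After median-of-ratios scaling the groups of H2-T23, Tnfsf4 and Icosl overlapped, and those of Lgals9 did not.

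Over the 8 libraries the most alike genes differed between the ligand genes. They were picked as the highest of 11494 genes, so a high r can come from the search alone. The value without vehicle replicate 1 uses 7 of the same libraries and is no independent check. The likeness given is Pearson's r of log2(FPKM + 1) across all 8 libraries, a description that holds the difference between the groups and the extreme position of vehicle replicate 1. For Vsir the most alike gene was Ptpn7 (r = 0.99, and 0.99 without vehicle replicate 1), followed by Jak1 and Laptm5. For Cd86 it was Camk2b (0.99, and 0.97 without that library), then P2ry10 and Tm6sf1. For Cd47 it was Relb (0.99 and 0.97), then Slc28a2. For Cd274 it was Nt5dc1 (0.96 and 0.92), then Zyx and Map4k2. For Pvr it was Snhg17 (0.96 and 0.93), then Ndel1 and Farp1. For Nectin2 it was Tctn2 (0.99 and 0.99), then Ntmt1 and Tpm1. For Cd276 it was Prr5 (0.99 and 0.98), then Gss and Itfg2. For Cd200 it was Acad12 (0.98 and 0.98), then Hnrnpa3 and Taf4b.

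The same measure was taken against the marker lists, and much of it depended on vehicle replicate 1. The median r with the 10 T cell markers was 0.94 for Vsir, 0.91 for Cd86 and 0.86 for Cd47, and 0.89, 0.85 and 0.79 for the same genes without vehicle replicate 1. With the 13 tested macrophage markers it was 0.80 for Vsir, 0.88 for Cd86 and 0.84 for Cd47, and 0.71, 0.78 and 0.67 without that library. Nectin2 and Cd276 had a median r of -0.43 and -0.0029 with the T cell markers, and of -0.013 and 0.29 without that library, so the negative value of Nectin2 rested on it. With the 12 melanoma markers the median r was 0.64 for Nectin2 and 0.69 for Cd276, against -0.095 for Cd47, 0.00083 for Vsir and -0.23 for Cd86. Without vehicle replicate 1 it was 0.50 for Nectin2 and 0.66 for Cd276, against 0.66 for Cd47, 0.45 for Vsir and 0.33 for Cd86, so the melanoma list no longer set Nectin2 and Cd276 apart from Cd47. Cd274 had a median r of 0.57 with T cell markers and 0.0025 with melanoma markers, and of 0.22 and 0.43 without vehicle replicate 1. T cell and macrophage sums were both highest in vehicle replicate 1 and lowest in tacrolimus replicate 2, and they differed in the order of other libraries. No melanoma marker of 12 was lower at an unadjusted limma p under 0.05, and without vehicle replicate 1, 8 of 12 were, where 19.3% of all genes were.

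**Figure D4:**
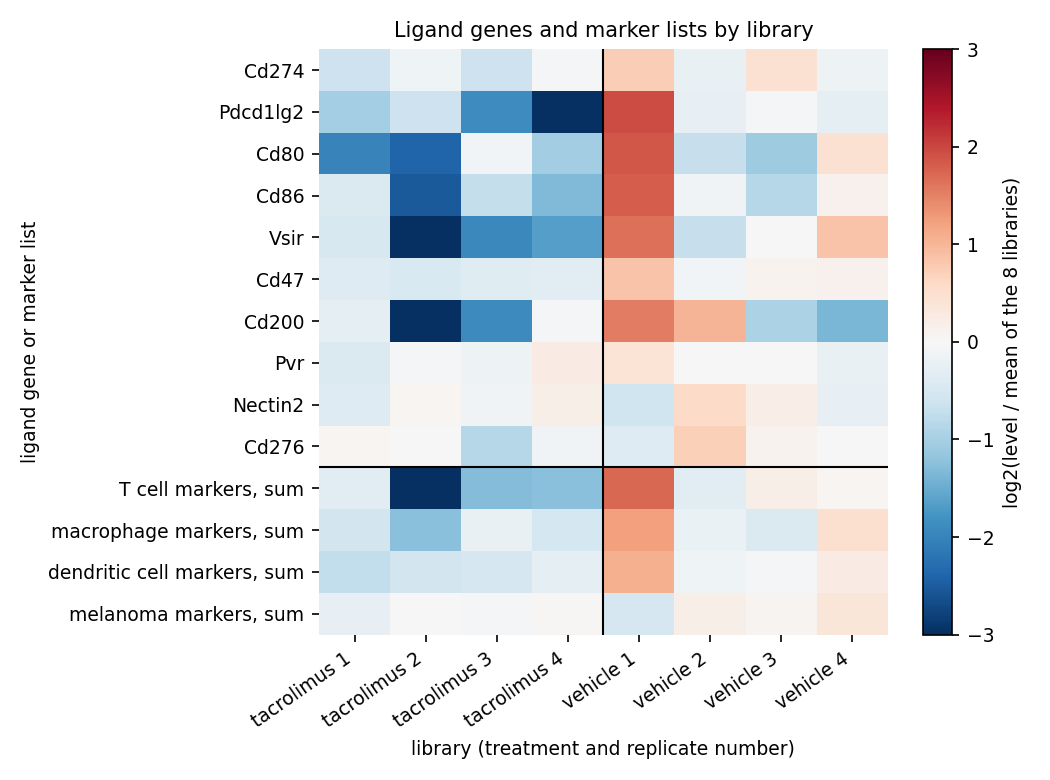
Level of each ligand gene, and summed FPKM of 4 marker lists, in each library relative to the mean of the 8 libraries, as log2, with red above and blue below the mean and the colour capped at 3 in either direction. Cd80, Cd86, Vsir, Cd47, Cd200 and the T cell and macrophage sums share the same extremes, tacrolimus replicate 2 (low) and vehicle replicate 1 (high). Nectin2 and Cd276 are highest in vehicle replicate 2.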

How the data were processed

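RNA sequencing of 8 samples, 4 tacrolimus and 4 vehicle, was analysed, with groups and replicate numbers from the titles. Per the submitters' processing notes, the processing drew on DESeq2 1.24.0, RSEM 1.3.1, HISAT2 2.1.0 and the GRCm38.p6 build, whose roles and order are not given in the sources used here. The files deposited by the authors hold 1 value per gene to 2 decimals with no unit named. From the values, they were taken as FPKM, which the authors had already divided by gene length and library size before the files were deposited: in single-transcript genes of 500 to 1500 bases, 85.7% to 87.7% of low values times the transcript length less 250 bases lay within 0.15 of a whole multiple of the library's step, against 30.0% for an even spread. The step gives the estimated depth. Whole fragments could not be read back for all genes, so no count model was used.

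Genes that reached an FPKM of 1 in 4 or more libraries were fitted as log2(FPKM + 1) by limma 3.58.1 (trend, treatment as the only term, Benjamini-Hochberg over all genes tested) in R 4.3.3. Fold changes on this scale understate those of low genes. Single genes also had an exact two-sided permutation test over 70 assignments. Symbols, matched by Ensembl identifier (346 had none), and coordinates are from GENCODE M21, promoters from RefSeq. The genes, lists and tests were chosen with earlier results of these data known. Text names all 10 ligand genes, up to 4 genes per list by unadjusted p, 17 chosen receptor, interferon and marker genes whatever their values, and up to 3 most alike genes of each tested ligand gene; some genes under this rule are not reported here. The fit was tested on simulated data. At most 1.69% of values were identical between any 2 libraries, over genes with a mean FPKM of 1 or more. Nothing in the labels says how samples were spread over batches. p-values measure the spread between these samples. Python 3.11.15 was used for the other steps.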

Additional observations from a re-analysis of the deposited data

Results flagged for a closer look

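In 2 of the 20 gene and group combinations of the ligand genes, 1 library lay far from the other 3, where chance gives about 1 in 20. Both were vehicle replicate 1. Pdcd1lg2 was at 3.15 FPKM in it, beside 0.66 to 0.78 FPKM in the other vehicle libraries. Cd47 was at 135.19 FPKM in it, where the others lay between 70.2 and 81.1 FPKM. The same library had the highest T cell and macrophage marker sums, 1365 and 1893 FPKM, and their part in these values was not tested. Leaving it out cannot make the groups overlap, because it was the highest vehicle library for both genes. The highest tacrolimus values were 0.53 FPKM for Pdcd1lg2 and 60.1 FPKM for Cd47.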

How the results depend on the processing

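Of the alternatives run, the 1 in which a ligand gene passed an adjusted limma p of 0.05 was the replicate number as a block. Samples with the same number are not known to be paired. The correlation of their deviations from the group mean was 0.21, 0.28, -0.02 and -0.02 for numbers 1 to 4. For tacrolimus replicates 1 to 4 the highest with a vehicle library of another number was 0.004, 0.10, 0.15 and 0.09. These values do not decide whether the samples are paired. With the replicate block 121 genes passed, 6 higher and 115 lower, and 1 ligand gene passed, Vsir (-1.78, adjusted p = 0.0344; 0.0344 to 0.418 over the alternatives). Leaving out 1 library at a time gave 0 to 1 genes in all and 0 ligand genes; the 1 was without vehicle replicate 1. The log2 difference of Pvr was 0.071 (median-of-ratios scaling) and 0.11 (upper-quartile scaling). Nectin2 was at 0.16 and 0.19 with these, and between -0.22 and 0.13 when 1 library was left out, above 0 without tacrolimus replicate 1, vehicle replicate 2 or vehicle replicate 3 (0.05, 0.13 and 0.02). Cd274, Cd86, Vsir, Cd276, Cd47 and Cd200 kept a negative difference in every alternative that tested them; Cd86 and Vsir were not tested when an FPKM of 1 was asked of all 8 libraries. With a pseudocount of 0.1 the differences of Pdcd1lg2 and Cd80, not tested in the main comparison, were -1.70 and -1.33, beside -0.73 and -0.70 with a pseudocount of 1, and -0.41 and -0.34 with that pseudocount and without vehicle replicate 1. As alternatives added after seeing the data, the count of genes lower at an unadjusted p under 0.05 was 1 ligand gene, 3 binding partners and 3 interferon genes after median-of-ratios scaling, and 5 to 6 binding partners without tacrolimus replicate 2 or vehicle replicate 1. Over all genes, an unadjusted p under 0.05 was met by 208 higher and 2056 lower ones as deposited, and by 710 higher and 746 lower ones after median-of-ratios scaling. Depth limits Pdcd1lg2 and Cd80 most. The cause of these changes was not tested.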
